A study of Mus musculus with 12 samples.

Results

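The transporters described here were 10 solute carriers with which the proximal tubule takes glucose and amino acids back from the filtered urine: Slc5a2, Slc5a1, Slc2a2, Slc6a19, Slc7a7, Slc7a8, Slc7a9, Slc7a13, Slc3a1 and Slc1a1. They were chosen by name and found through their NCBI Gene numbers, and all 10 were present among the 27179 genes of the kidney expression table. Values were TPM, in which the levels of all genes of a library, each corrected for gene length, add up to 1000000. All 10 members also passed the filter on low values (3 or more of the 12 libraries at 1 TPM or above), as did 14972 genes in all, which were tested. The other 9 members rested on at least 2681 reads in every library, whereas Slc7a13 rested on 55 to 337 reads in most libraries.

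The libraries came from whole kidneys of 12 mice in 4 groups of 3, all 8 to 12 weeks old and labelled as of mixed strain background. Wild-type saline and FAN1KO saline mice were injected with saline, whereas wild-type cisplatin and FAN1KO cisplatin mice received cisplatin at 2 mg/kg into the peritoneum once a week for 5 weeks. FAN1KO mice carried the genotype γGT1-Cre;Fan1-/-, in which the Ggt1 promoter drives Cre in proximal tubule cells and so removes FAN1, a nuclease of DNA crosslink repair, there and not in the other cells of the kidney. Whether wild-type mice carried the Cre transgene is not given in the sources used here. The question was how kidneys that lose FAN1 in the tubule respond to repeated low doses of cisplatin, a model of karyomegalic interstitial nephritis (KIN).

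In the proximal tubule, sodium-coupled carriers in the apical brush border draw glucose and amino acids into the cell, and carriers in the basolateral membrane let them pass on to the blood. Most of the filtered glucose is taken up in the early, convoluted segments by SGLT2 (Slc5a2), and the remainder is scavenged in the late, straight segment by SGLT1 (Slc5a1), which has a higher affinity. Several amino acid carriers work only as pairs, a light chain that forms the pore and a heavy chain, such as rBAT (Slc3a1) or 4F2hc (Slc3a2), that brings it to the membrane. Slc5a2, Slc2a2, Slc6a19, Slc7a7, Slc7a8 and Slc7a9 were counted here as the 6 early segment members, and Slc5a1, Slc7a13, Slc3a1 and Slc1a1 as the 4 late segment members.

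Between 37202169 and 82947648 reads per library could be recovered from the steps in the TPM. Fan1 itself, at 1.17 to 3.51 TPM in FAN1KO and 1.98 to 3.80 TPM in wild-type kidneys, did not separate the genotypes in whole-kidney RNA. One library of each group, 4 in all (number 3 of wild-type saline, 1 of FAN1KO saline, 1 of wild-type cisplatin and 3 of FAN1KO cisplatin), held RNA of 4 Y-linked genes (Uty, Kdm5d, Ddx3y and Eif2s3y), whose mean log2(TPM + 1) was 3.46 to 3.93 there and at most 0.10 in the other 8. The sex of each mouse was not in the labels. Proximal tubule markers such as Lrp2 and Slc34a1 were abundant in every library, with summed levels of 7 markers between 3467 and 13406 TPM. The FAN1KO cisplatin libraries stood apart in their red cell genes, with 5.54 to 72.4 TPM for 3 globin genes against 532 to 6531 TPM in the other groups. Results that rest on the Y-linked libraries are given with and without them.

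The 250 bases before the start of the pair of genes that were lower in FAN1KO than in wild-type kidneys under cisplatin, Slc3a1 and Slc1a1, are shown because both moved together. The sequences are those of RefSeq on GRCm38.p6 (mm10), which held promoter windows for 8 of the 10 members. Each was searched on both strands for the core of the HNF4 site, CAAAGT, since HNF4A is a transcription factor of tubule cells, and matches are in capitals. Slc3a1 lies at chr17:85028347-85064241 and Slc1a1 at chr19:28835135-28913960, both on the plus strand.
Slc3a1, chr17:85028097-85028346: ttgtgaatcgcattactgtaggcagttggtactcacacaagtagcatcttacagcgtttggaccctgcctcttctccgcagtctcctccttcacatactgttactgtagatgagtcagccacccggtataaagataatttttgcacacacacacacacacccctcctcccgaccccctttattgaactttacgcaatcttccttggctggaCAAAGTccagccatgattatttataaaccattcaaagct
Slc1a1, chr19:28834885-28835134: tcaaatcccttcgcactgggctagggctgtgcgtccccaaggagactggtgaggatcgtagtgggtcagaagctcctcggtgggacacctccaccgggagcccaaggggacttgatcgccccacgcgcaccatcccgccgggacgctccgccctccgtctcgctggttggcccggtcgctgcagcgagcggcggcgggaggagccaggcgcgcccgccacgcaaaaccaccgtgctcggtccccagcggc
The Slc3a1 window held 1 HNF4 core, whose first base lay 39 bases before the start, and the Slc1a1 window held none. Of all 32851 promoter windows of this length, 12.6% held the HNF4 core, so a match is common and is given only as a description. Of the 13 windows held for 8 members, 3 had the core. They belonged to Slc3a1, Slc2a2 and Slc7a7, of which only Slc3a1 was called between genotypes under cisplatin. Hnf4a itself was lower in FAN1KO than in wild-type kidneys under cisplatin, with a log2 fold change of −0.52 (limma adjusted p = 0.0201). A link between Hnf4a and the transporter levels was not tested.

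**Figure D1:**
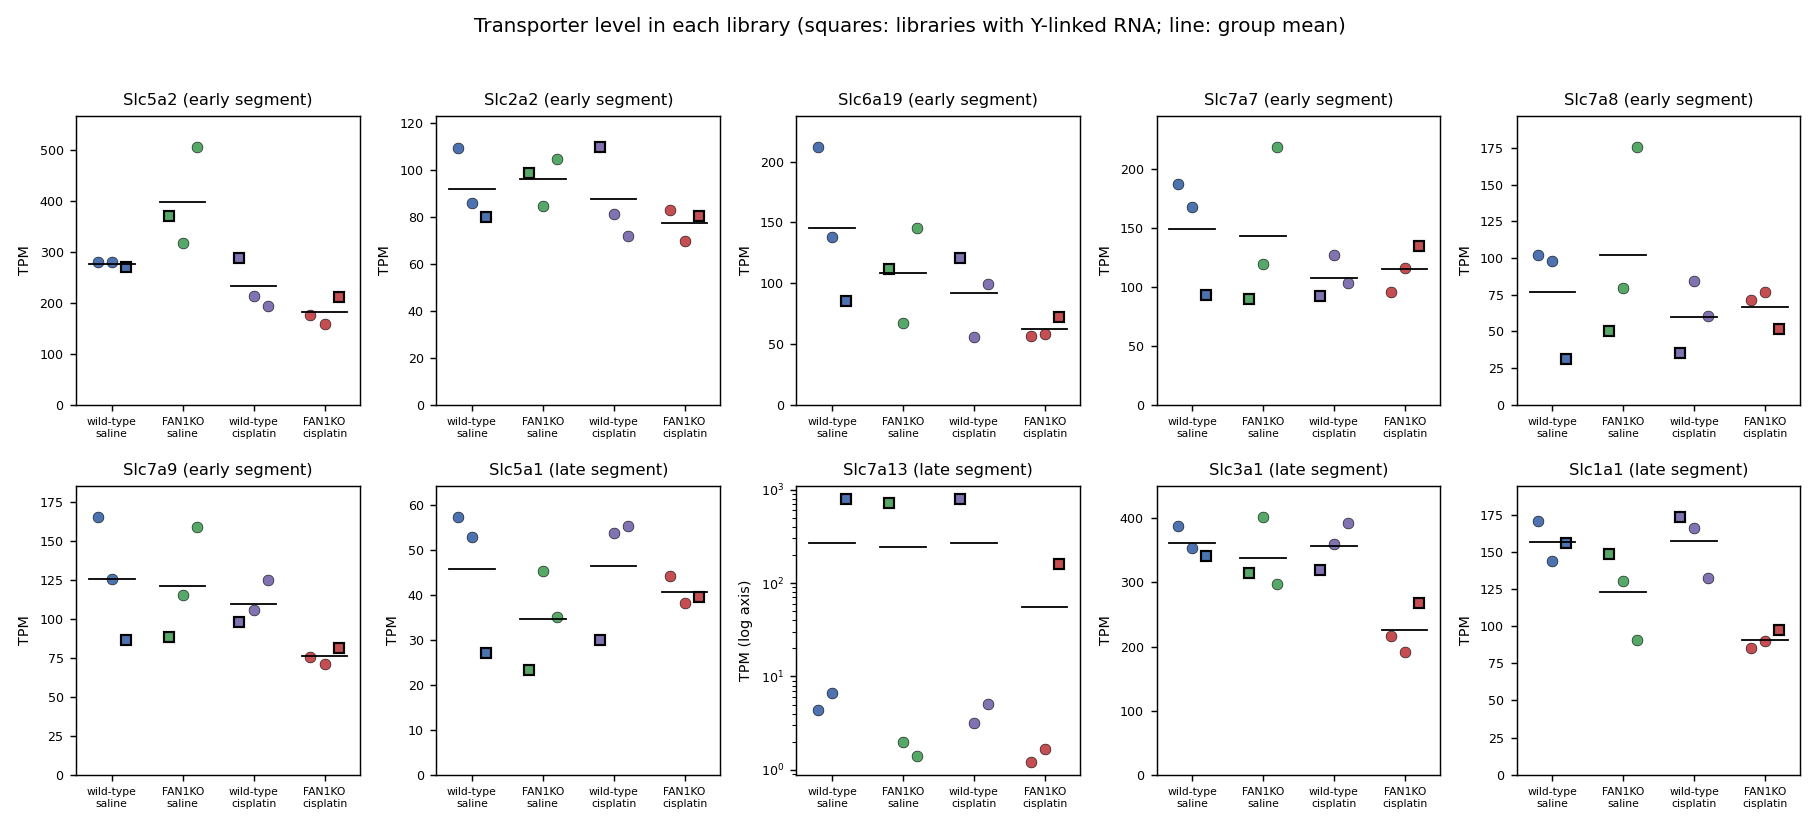
TPM of each of the 10 transporters (vertical axes from 0, except a log axis for Slc7a13) in the 12 libraries, by group, with squares for the 4 libraries that held Y-linked RNA and a line at the mean of 3. The FAN1KO cisplatin points of Slc3a1 and Slc1a1 lie below all wild-type cisplatin points, and Slc7a13 splits by the squares in all 4 groups.

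Under cisplatin, 2 of the 10 transporters were lower in FAN1KO than in wild-type kidneys, both counted here as late segment members, and none was higher. They were Slc3a1, the rBAT heavy chain for cystine and basic amino acids, and Slc1a1, the apical glutamate and aspartate carrier. Of all genes tested, 4.37% were called lower and 19.6% higher in this comparison (limma, Benjamini–Hochberg adjusted p under 0.05). The median log2 fold change of the 10 members was −0.42, whereas that of all genes was 0.24, and 8 of the 10 were below 0. With median-ratio scaling, which took the median of all genes to −0.01, the median of the members was −0.70.

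Slc3a1 had 319.9, 360.0 and 392.9 TPM in wild-type cisplatin kidneys and 216.5, 192.0 and 267.2 TPM in FAN1KO cisplatin kidneys. All 3 FAN1KO values were below all 3 wild-type values, and the saline groups, at 388.8, 353.1 and 340.8 TPM in wild-type and 314.6, 402.7 and 297.5 TPM in FAN1KO kidneys, lay near the wild-type cisplatin level. The mean was 225 ± 38.4 TPM against 358 ± 36.6 TPM (SD, n = 3 each), a log2 fold change of −0.67 (SE 0.15, limma adjusted p = 0.0109). The exact two-sided permutation test gave p = 0.1, the smallest that 3 mice against 3 allow.

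Slc1a1 had 173.9, 165.9 and 132.7 TPM in wild-type cisplatin kidneys and 85.6, 89.8 and 97.5 TPM in FAN1KO cisplatin kidneys. Here too the groups did not overlap. The mean was 91.0 ± 6.03 TPM against 158 ± 21.8 TPM (SD, n = 3 each), a log2 fold change of −0.78 (SE 0.17, limma adjusted p = 0.0105). Saline kidneys held 170.9, 143.7 and 155.9 TPM when wild-type and 148.5, 130.4 and 90.4 TPM when FAN1KO. One FAN1KO saline kidney was thus already within the range of the FAN1KO cisplatin kidneys. Both calls held without the Y-linked libraries, with adjusted p of 0.0057 for Slc3a1 and 0.0203 for Slc1a1 by limma.

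Slc7a9 encodes b0,+AT, the light chain that rBAT carries to the membrane of the early segments, and was read at 97.6, 105.8 and 124.7 TPM in wild-type cisplatin and 75.4, 71.2 and 81.6 TPM in FAN1KO cisplatin kidneys. The groups did not overlap, but the log2 fold change of −0.51 (95% interval −1.05 to 0.02) missed the threshold (limma adjusted p = 0.146). It passed the threshold with median-ratio scaling (adjusted p = 0.0184 by limma), with only the 6 cisplatin libraries in the fit (0.0433) and without the Y-linked libraries (0.0332). With Slc3a1 and Slc1a1, 3 of the 10 members were therefore lower without overlap, against 8.60% of all genes tested. Relative to its partner, Slc7a9 stood at 29.4 to 31.7% of the Slc3a1 TPM in wild-type cisplatin and 30.5 to 37.1% in FAN1KO cisplatin kidneys, ranges that overlap.

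Slc6a19, or B0AT1, is the apical carrier of most neutral amino acids. It was at 120.7, 55.4 and 99.2 TPM in wild-type cisplatin and 56.0, 58.2 and 71.7 TPM in FAN1KO cisplatin kidneys, and the lowest wild-type library lay under every FAN1KO library. The log2 fold change was −0.50 (95% interval −1.33 to 0.34, limma adjusted p = 0.365).

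The basolateral amino acid carriers gave values on the other side of 0. Slc7a7, the y+LAT1 light chain that exports basic amino acids, was at 92.1, 127.6 and 103.7 TPM in wild-type cisplatin and 95.5, 116.3 and 135.2 TPM in FAN1KO cisplatin kidneys, with a log2 fold change of 0.10 (95% interval −0.63 to 0.83). Slc7a8, the LAT2 light chain for neutral amino acids, was at 35.1, 84.6 and 60.5 TPM and at 71.4, 76.9 and 51.8 TPM in the same order, with a log2 fold change of 0.22 (95% interval −0.96 to 1.39). Neither passed the test (limma adjusted p = 0.849 and 0.795), and with median-ratio scaling both lay below 0, at −0.19 and −0.07. The intervals are wide enough to hold a fall as large as that of Slc1a1 for Slc7a8 but not for Slc7a7.

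The glucose carriers did not pass the test in this comparison. Slc5a2 was at 288.3, 212.5 and 194.3 TPM in wild-type cisplatin and 175.2, 158.6 and 212.0 TPM in FAN1KO cisplatin kidneys, with a log2 fold change of −0.34 (95% interval −0.76 to 0.08, limma adjusted p = 0.219). Slc5a1 was at 30.0, 53.9 and 55.5 TPM against 44.1, 38.2 and 39.6 TPM, with a log2 fold change of −0.14 (95% interval −0.86 to 0.58). Without the Y-linked libraries, which held 30.0 and 39.6 TPM, its log2 fold change was −0.40 (limma adjusted p = 0.0522). The remaining Slc5a1 values, 53.9 and 55.5 TPM against 44.1 and 38.2 TPM, did not overlap. Slc2a2, or GLUT2, through which glucose leaves the cell on the blood side, was at 109.8, 81.1 and 71.7 TPM against 82.6, 69.7 and 80.1 TPM, with a log2 fold change of −0.15 (95% interval −0.53 to 0.22). With the Y-linked libraries included, the FAN1KO values of all 3 glucose carriers overlapped the wild-type values.

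**Figure D2:**
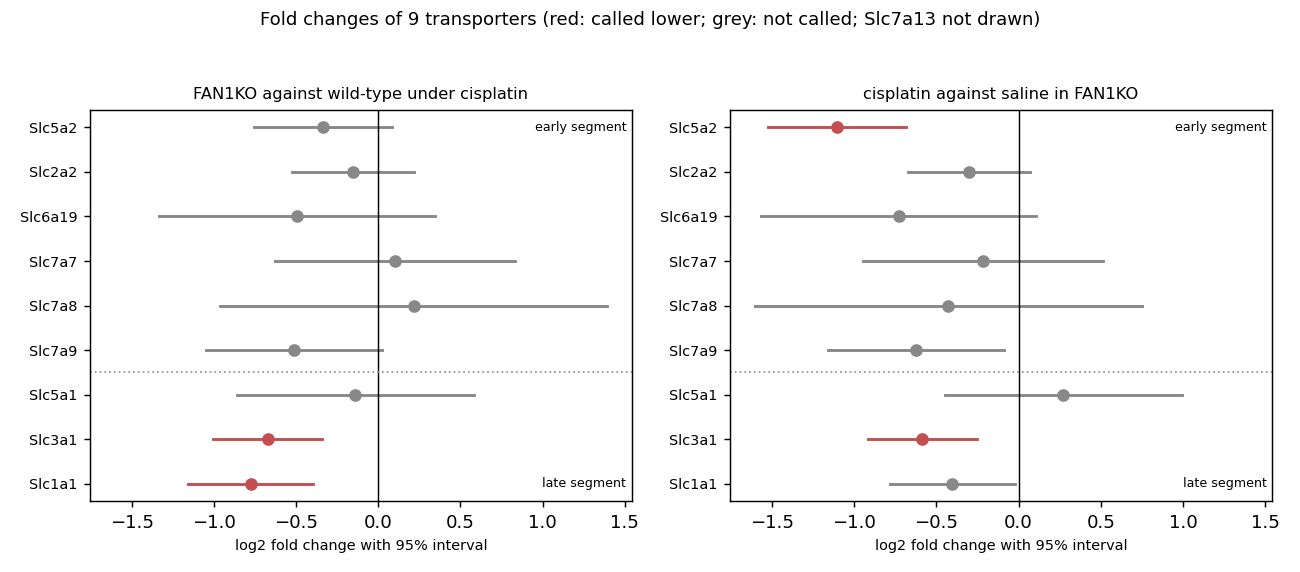
Log2 fold changes of 9 transporters (points) with 95% intervals (lines), for FAN1KO against wild-type kidneys under cisplatin on the left and cisplatin against saline in FAN1KO kidneys on the right, with early segment members above the dotted line and late ones below. Slc3a1 is in red, called lower, on both sides, Slc1a1 on the left and Slc5a2 on the right, while Slc7a13, whose interval ran from −7.92 to 5.01 in the left comparison, is not drawn.

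In FAN1KO kidneys, 2 of the 10 transporters were lower under cisplatin than under saline and none was higher. These were Slc5a2, the main glucose carrier, and again Slc3a1. Over all genes tested, 4.90% were called lower and 34.9% higher in this comparison. The members had a median log2 fold change of −0.51 and all genes one of 0.37, and with median-ratio scaling these were −0.94 and −0.01. This comparison shares the FAN1KO cisplatin libraries with the one above.

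Slc5a2 was at 371.0, 316.6 and 506.4 TPM in FAN1KO saline and at 175.2, 158.6 and 212.0 TPM in FAN1KO cisplatin kidneys, without overlap. The mean went from 398 ± 97.7 TPM to 182 ± 27.3 TPM (SD, n = 3 each), which is a log2 fold change of −1.11 (SE 0.19, limma adjusted p = 0.0017). The fall remained significant with each library left out in turn, where the adjusted p was at most 0.0094 by limma, and without the Y-linked libraries, where it was 0.0021. Wild-type kidneys held 280.2, 278.8 and 269.6 TPM under saline, less than each of the FAN1KO saline kidneys. That difference, a log2 fold change of 0.50, had an unadjusted limma p of 0.0246 and an adjusted p of 0.457, so the FAN1KO saline level from which the fall is measured was itself the highest of the 4 groups.

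Slc3a1 gave a log2 fold change of −0.59 (SE 0.15, limma adjusted p = 0.0117) between FAN1KO cisplatin and FAN1KO saline kidneys, again without overlap. Without FAN1KO cisplatin replicate 2, which had the lowest Slc3a1 value, it was −0.48 with a limma adjusted p of 0.0512.

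Among the other members, Slc7a9 had a log2 fold change of −0.62 (limma adjusted p = 0.0631) with groups that did not overlap, at 88.5, 115.1 and 158.9 TPM under saline. It passed without replicate 1 of FAN1KO saline, or without replicate 1 or 3 of wild-type saline, which enter only the estimate of the spread (limma adjusted p from 0.0322 to 0.0437). Slc2a2 also did not overlap, at 98.8, 84.5 and 104.3 TPM under saline and at most 82.6 TPM under cisplatin, with a log2 fold change of −0.30 (limma adjusted p = 0.175). In all, 4 of the 10 members were lower without overlap, against 7.43% of all genes tested. Slc1a1 had a log2 fold change of −0.40 (limma adjusted p = 0.0845), which passed without replicate 3 of FAN1KO saline, its lowest saline library (limma adjusted p = 0.0108). The values were, for Slc6a19, −0.73 (limma adjusted p = 0.147), for Slc7a8 −0.43 (0.546) and for Slc7a7 −0.22 (0.624). Slc5a1 alone lay above 0, with a log2 fold change of 0.27 (95% interval −0.45 to 0.99), and below it with median-ratio scaling, at −0.15.

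Without cisplatin the genotype made no difference that passed the test. Between FAN1KO and wild-type saline kidneys none of the 10 members was called by limma, 1 had an unadjusted p under 0.05 (Slc5a2, above), and 0.768% of all genes were called either way. Their median log2 fold change was −0.10.

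In wild-type kidneys, cisplatin did not move any member past the threshold either. None of the 10 was called by limma and 0 had an unadjusted p under 0.05, where 0.0601% of all genes tested, 9 genes, were called either way. The 95% interval of the log2 fold change was −0.35 to 0.32 for Slc3a1, −0.38 to 0.38 for Slc1a1 and −0.69 to 0.15 for Slc5a2.

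The test of the difference between the genotypes in their response, the interaction of genotype and cisplatin, called none of the 10 members, and 6.24% of all genes tested. Slc5a2 came nearest, with a log2 difference of −0.83 (95% interval −1.43 to −0.24, limma adjusted p = 0.0875), then Slc3a1, with −0.57 (95% interval −1.04 to −0.10, adjusted p = 0.129). These 2 members had an unadjusted p under 0.05. For Slc1a1 the log2 difference was −0.40 (95% interval −0.94 to 0.13, limma adjusted p = 0.331). Slc5a2 passed with the Y-linked genes as a covariate (limma adjusted p = 0.029) and Slc3a1 without the Y-linked libraries (limma adjusted p = 0.0489). With all 12 libraries and no covariate, a different response of the genotypes was therefore not shown for any member.

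Beside these results, markers of the proximal tubule and of its injury differed in FAN1KO cisplatin kidneys. Of 7 general proximal tubule markers, 6 were called lower than in wild-type cisplatin kidneys, beside 4.37% of all genes tested. The median log2 fold change of the 7 was −0.91, and their summed level was 3467 to 6823 TPM against 9559 to 11140 TPM. The 4 markers of injured tubule, Havcr1, Lcn2, Krt20 and Vcam1, were all called higher, beside 19.6% of all genes tested. Their summed levels were 778 to 1155 TPM against 32.8 to 147.9 TPM. The 10 transporters, with a median of −0.42, thus lay nearer to 0 than the general markers, a difference that was not tested. Collecting duct markers summed to 878 to 1492 TPM in FAN1KO cisplatin against 316 to 663 TPM in wild-type cisplatin kidneys. Of these 3 markers, 2 were called higher and 1 lay below 0. The red cell genes, as given above, were far lower. Of the 3 markers of each other cell type, Pvalb of the distal convoluted tubule was lower (log2 fold change −4.63, limma adjusted p = 0.0012), and Cd68 of macrophages (1.56, 0.0499) and Cd8a of T cells (0.87, 0.0428) were higher. With median-ratio scaling neither Cd68 (limma adjusted p = 0.0588) nor Cd8a (0.0840) was called. The summed macrophage markers were 38.4 to 84.0 TPM against 29.6 to 53.1 TPM and those of T cells 3.57 to 6.59 TPM against 1.02 to 4.63 TPM, overlapping in both. Distal convoluted tubule markers, at 253.5 to 629 TPM against 390.4 to 728 TPM, overlapped too. Of the markers of the thick ascending limb, podocytes, endothelium and fibroblasts, 0 were called. Their median log2 fold changes were −1.06 for endothelium and −0.42 for podocytes, with 3 of 3 below 0 in each. For the thick ascending limb and fibroblasts they were −0.13 and −0.06, with 2 of 3 below 0 in each. The part of these shifts in the transporter values was not tested. In whole-kidney RNA, fewer proximal tubule cells and less transporter RNA in each of them cannot be told apart.

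Early and late segment members were compared by the difference of their mean log2(TPM + 1), late minus early, as a description. FAN1KO differed from wild-type kidneys by −0.56 under cisplatin and by −0.50 under saline, each less than the spread between mice of 1.16 (SD over the libraries about their group means), which includes the Y-linked libraries. Without those libraries, 2 remained in each group, with no test. Late minus early was then −0.75 to −0.65 in wild-type cisplatin and −1.24 in both FAN1KO cisplatin kidneys, which did not overlap, and −1.30 to −1.03 in wild-type saline and −2.28 to −1.12 in FAN1KO saline kidneys, which did. With Slc7a13, the member of the widest range, left out, late minus early was 0.20 to 0.54 in wild-type cisplatin and 0.02 to 0.12 in FAN1KO cisplatin kidneys, which did not overlap. The saline groups spanned −0.08 to 0.36 in wild-type and −0.94 to 0.26 in FAN1KO kidneys, which did. Their means were 0.41 in wild-type and 0.08 in FAN1KO kidneys under cisplatin, and 0.10 and −0.25 under saline. The FAN1KO mean was thus the lower under both treatments, with a wider spread under saline. For 3 early segment markers that are no members here, Gatm, Slc34a1 and Slc4a4, the median log2 fold change between genotypes under cisplatin was −1.17. All 3 were below 0 and 1 was called lower. For 4 late segment markers, Cyp7b1, Atp11a, Slc22a7 and Slc22a19, it was −1.09, with 3 below 0 and 2 called lower. In this comparison 4.37% of all genes tested were called lower. Of the late markers, Cyp7b1 and Atp11a split by Y-linked RNA. Libraries with it held 80.3 to 184.8 TPM of Cyp7b1, and the others 1.10 to 4.82 TPM. For Atp11a these ranges were 97.4 to 292.1 TPM and 41.5 to 81.0 TPM.

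The balance of the glucose carriers differed between treatments in FAN1KO kidneys. Slc5a1 stood at 6.29, 14.3 and 6.94% of the Slc5a2 TPM in FAN1KO saline and at 25.2, 24.1 and 18.7% in FAN1KO cisplatin kidneys, 2 ranges apart. Slc5a2 fell between these groups, from a FAN1KO saline mean that was the highest of all 4 groups, whereas the Slc5a1 values overlapped. In wild-type kidneys the percentages were 20.5, 19.0 and 10.0% under saline and 10.4, 25.3 and 28.6% under cisplatin, which overlapped. The FAN1KO cisplatin percentages lay within the wild-type cisplatin range. The library with Y-linked RNA had the lowest percentage in all 4 groups, though in FAN1KO saline it was close to another library.

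**Figure D3:**
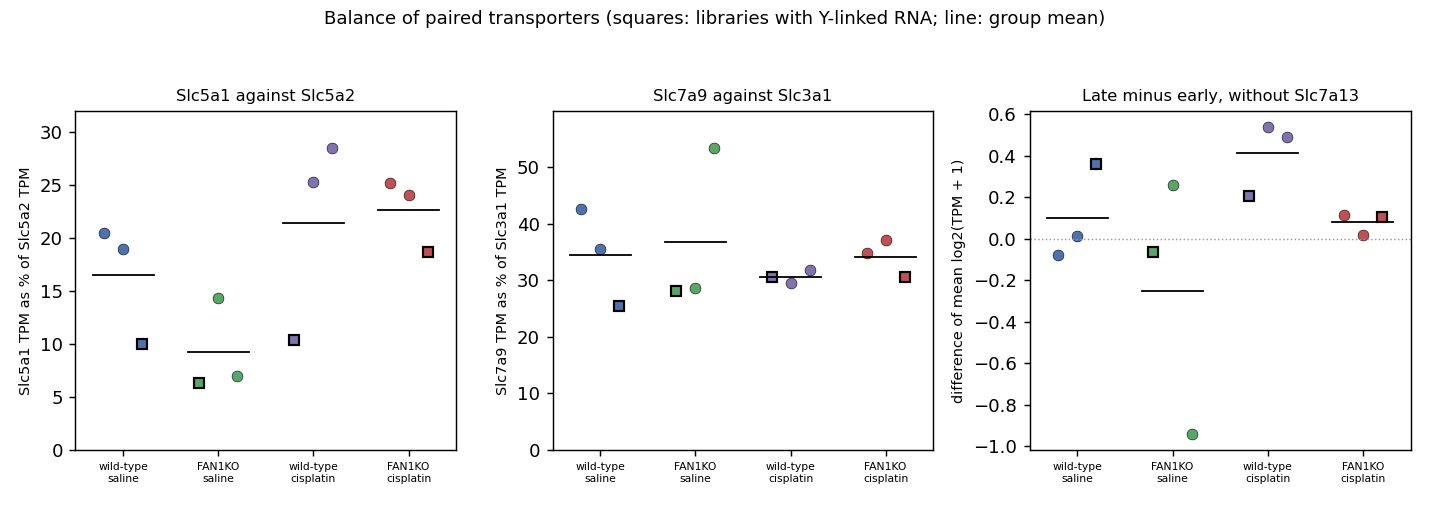
Slc5a1 TPM as a percentage of Slc5a2 TPM, Slc7a9 TPM as a percentage of Slc3a1 TPM, and the late minus early difference in mean log2(TPM + 1) without Slc7a13, for each of 12 libraries by group, with squares for libraries that held Y-linked RNA and lines at group means. In FAN1KO kidneys Slc5a1 moves from at most 14.3% of Slc5a2 under saline to at least 18.7% under cisplatin.

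Slc7a13 was the member with the widest range. It encodes AGT1, the light chain that rBAT carries in the straight segment, and is known to be expressed more in male than in female mouse kidneys. It was at 789.9, 719.5, 794.8 and 161.6 TPM in the 4 libraries with Y-linked RNA, the last of which was the FAN1KO cisplatin library, and between 1.23 and 6.68 TPM in the other 8. No library of one kind reached the other. As a share of the light chains of rBAT, Slc7a13 over the sum of Slc7a13 and Slc7a9, it made up 66.5 to 90.1% of the TPM in the former and 0.88 to 5.05% in the latter.

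Within the libraries with Y-linked RNA, the FAN1KO cisplatin kidney had 161.6 TPM of Slc7a13 and the wild-type cisplatin kidney 794.8 TPM, 1 mouse each and so without a test. In the libraries without it, FAN1KO cisplatin kidneys held 1.23 and 1.67 TPM and wild-type cisplatin kidneys 3.18 and 5.02 TPM. All 12 libraries together gave a log2 fold change of −1.46 between these groups with a 95% interval of −7.92 to 5.01 (limma adjusted p = 0.744). With the Y-linked genes as a covariate it was −1.66 (limma adjusted p = 0.0062), and without the Y-linked libraries −1.04 (limma adjusted p = 0.0188). The call on Slc7a13 thus depended on how the Y-linked libraries were treated.

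Levels of the members were also compared with Y-linked RNA itself, a comparison chosen after the data were seen. In the fit with the mean log2(TPM + 1) of the 4 Y-linked genes as a covariate, the coefficient was called for 3 of 10 members. It was positive for Slc7a13, at 1.93 log2 units for each unit of Y-linked RNA (limma adjusted p = 6.5e-07), and negative for Slc7a8, at −0.29 (limma adjusted p = 0.0029), and for Slc5a1, at −0.18 (limma adjusted p = 0.0036). Over all genes tested, 6.29% had a positive and 49.5% a negative call, so the 2 negative members are no more than the background.

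Slc7a8 was at 31.2 to 51.8 TPM in the libraries with Y-linked RNA and at 60.5 to 176.1 TPM in the others, and the library with Y-linked RNA was the lowest of its group in 4 of 4 groups. Slc5a1 was at 23.3 to 39.6 TPM in the former and 35.1 to 57.5 TPM in the latter, the lowest in 3 of 4 groups. The libraries with Y-linked RNA were also the lowest of their group for the summed markers of thick ascending limb, distal convoluted tubule, podocytes, endothelium, macrophages, T cells and fibroblasts in all 4 groups, so Y-linked RNA and the make-up of the sample cannot be told apart here.

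**Figure D4:**
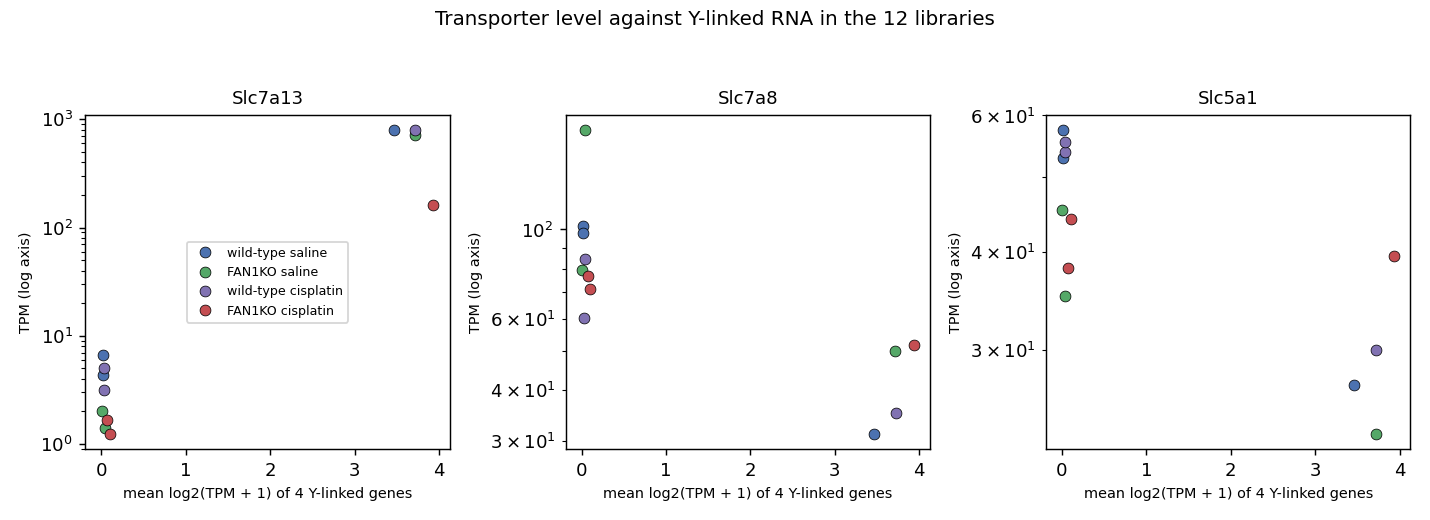
TPM of Slc7a13, Slc7a8 and Slc5a1 (log axes) against the mean log2(TPM + 1) of 4 Y-linked genes in the 12 libraries, coloured by group. The 4 libraries at 3.46 or more hold 161.6 to 794.8 TPM of Slc7a13, while the other 8 hold at most 6.68 TPM, and Slc7a8 lies lower in the former.

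Ordered by mean TPM, which corrects for length, Slc3a1 led in wild-type saline (361 TPM), wild-type cisplatin (358 TPM) and FAN1KO cisplatin kidneys (225 TPM), and Slc5a2 in FAN1KO saline kidneys (398 TPM). Slc5a1 had the lowest mean in every group, at 34.6 to 46.4 TPM. In the libraries without Y-linked RNA, however, Slc7a13 was lower, at 1.23 to 6.68 TPM against 35.1 to 57.5 TPM for Slc5a1. In wild-type saline kidneys Slc7a13, with a mean of 267 TPM that rests on 1 library, spanned 4.38 to 789.9 TPM and overlapped every other member. With Slc7a13 set aside, the range of Slc3a1 was above that of Slc5a2 (276 TPM), whose lowest value of 269.6 TPM was in turn above the highest of the rest, 212.3 TPM for Slc6a19. Slc1a1 (157 TPM), Slc7a7 (150 TPM), Slc6a19 (145 TPM), Slc7a9 (126 TPM), Slc2a2 (91.7 TPM) and Slc7a8 (77.1 TPM) followed, and each overlapped the next.

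Of 24 related carriers and partners, 22 were tested. Under cisplatin, with all 12 libraries and no covariate, 3 of them were called lower in FAN1KO than in wild-type kidneys and 0 higher. Of all genes tested, 4.37% were called lower and 19.6% higher. The 3 were Cltrn, the collectrin that brings Slc6a19 to the apical membrane, and Slc6a20a and Slc6a20b, carriers of proline and other imino acids. An unadjusted limma p under 0.05 was found for 9, and no share of all genes at that threshold is given here. Of these 9, Cltrn, Slc6a20a, Slc6a20b, Slc2a5 and Slc36a1 lay below 0, and Slc7a5, Slc38a2, Slc7a6 and Slc6a6 above it. The median log2 fold change of the 22 was 0.13, beside 0.24 over all genes tested, and with median-ratio scaling it was −0.14, beside −0.011. Calls changed with the handling of the Y-linked libraries. With Y-linked genes as a covariate, those called higher included Slc7a5, Slc7a6, Slc38a2, Slc2a1 and Slc6a6 (limma adjusted p from 0.0012 to 0.0497). Slc2a5 (0.031) and Slc36a1 (0.0129) were then called lower. Without the Y-linked libraries, Slc7a5, Slc43a2 and Slc16a10 were called higher (limma adjusted p 0.0144 to 0.0200) and Slc2a5 (0.0301) and Slc6a13 (0.0054) lower. No share of all genes is given for these fits.

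Cltrn was at 2209, 1776 and 1768 TPM in wild-type cisplatin and 792, 977 and 1421 TPM in FAN1KO cisplatin kidneys, without overlap. Its log2 fold change was −0.89 (limma adjusted p = 0.0132). Slc6a20b gave −1.33 (limma adjusted p = 0.0069) and Slc6a20a −0.79 (limma adjusted p = 0.0148), though these 2 genes are close copies whose reads may have been divided between them. With only the 6 cisplatin libraries in the fit, the limma adjusted p was 0.0536 for Cltrn and 0.0584 for Slc6a20a. Cltrn also lost its call without FAN1KO cisplatin replicate 1 (0.0573), and Slc6a20a without wild-type cisplatin replicate 1 (0.0576), FAN1KO cisplatin replicate 1 (0.0533) or FAN1KO cisplatin replicate 2 (0.0532). Slc3a2, the heavy chain for Slc7a7 and Slc7a8, was not called, with a log2 fold change of 0.48 (95% interval −0.25 to 1.21).

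Between FAN1KO cisplatin and FAN1KO saline kidneys the same 3 genes were lower, and 5 others were higher. Of all genes tested, 4.90% were called lower and 34.9% higher in this comparison, so a count of 5 higher among 22 lay below the background. The 5 were Slc7a5, the LAT1 light chain of growing cells (log2 fold change 1.47, limma adjusted p = 0.0053), Slc38a3 (1.28, 0.0199), the glutamine carrier SNAT3, Slc38a2 (1.17, 0.0231), Slc7a6 (1.02, 0.0169) and the taurine carrier Slc6a6 (0.85, 0.0068). Slc7a5 remained low in level, at 1.10, 2.00 and 1.71 TPM under saline and 7.86, 6.78 and 4.32 TPM under cisplatin. All 5 stayed above 0 with median-ratio scaling, where Slc7a5 and Slc7a6 kept their calls and Slc38a2 (limma adjusted p = 0.0552), Slc38a3 (0.115) and Slc6a6 (0.108) did not. Leaving out 1 library ended 3 calls, with limma adjusted p of up to 0.0871 for Slc38a2 (without replicate 1 or 3 of FAN1KO saline, or replicate 1 or 2 of FAN1KO cisplatin), 0.0717 for Slc38a3 (without replicate 1 or 2 of FAN1KO cisplatin) and 0.0701 for Slc7a6 (without replicate 1 of either group).

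**Figure D5:**
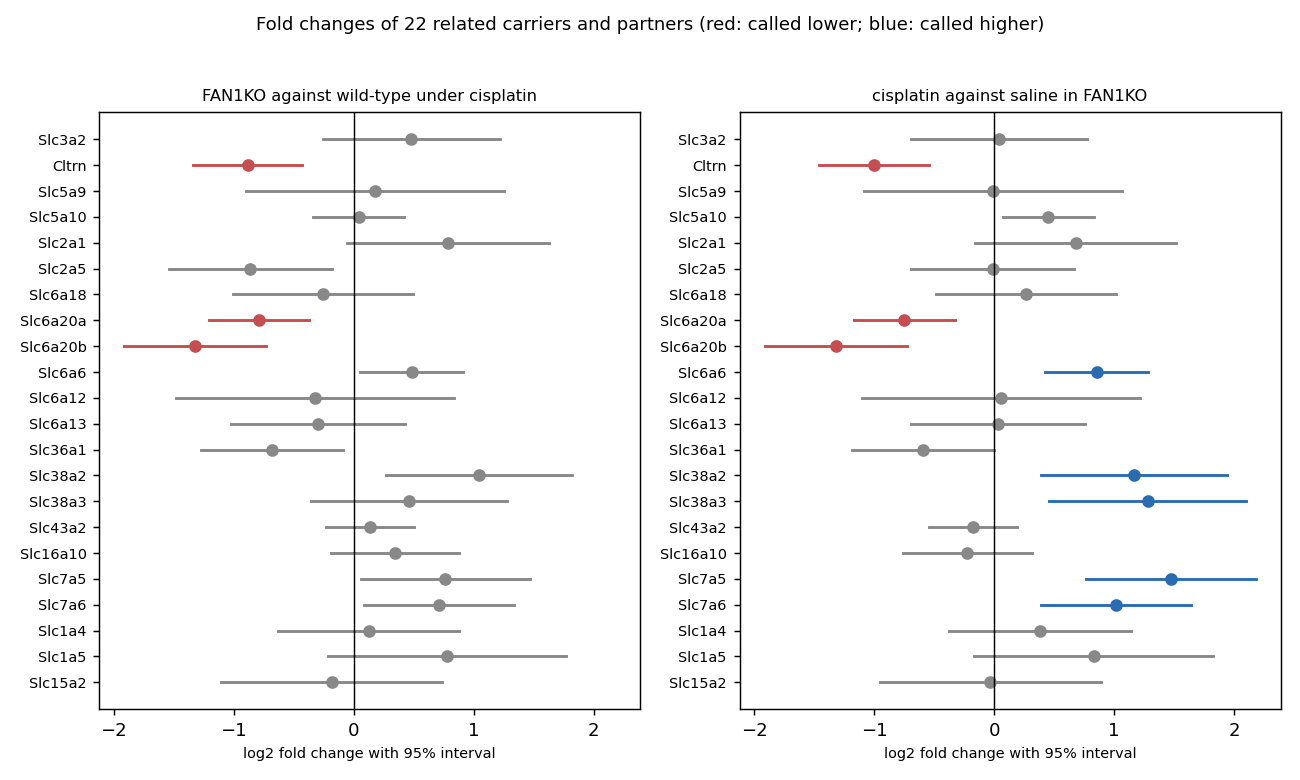
Log2 fold changes (points) with 95% intervals (lines) of 22 related glucose and amino acid carriers and partner subunits, for FAN1KO against wild-type kidneys under cisplatin on the left and cisplatin against saline in FAN1KO kidneys on the right. Cltrn, Slc6a20a and Slc6a20b are called lower in both, and 5 carriers are called higher on the right.

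Across the 12 libraries, the members did not share 1 pattern. Over their 45 pairs, Pearson's r of log2(TPM + 1) ran from −0.82 (Slc7a8 and Slc7a13) to 0.84 (Slc7a7 and Slc7a8), with a median of 0.32 and 8 pairs below 0. Slc3a1 and Slc1a1 had an r of 0.76, Slc6a19 and Slc7a9 one of 0.75, and Slc5a2 and Slc2a2 one of 0.74. These values describe libraries that share group and Y-linked differences. Among all other genes tested, the one most like each member was Mipep for Slc3a1 (r = 0.94), Ldc1 for Slc1a1 (0.97), Fut9 for Slc5a2 (0.94), Gbp3 for Slc5a1 (0.98), Tiparp for Slc2a2 (0.93), Glb1l for Slc6a19 (0.89), Dlg2 for Slc7a9 (0.95), Mbl2 for Slc7a7 (0.93), Nap1l5 for Slc7a8 (0.94) and Cyp4b1 for Slc7a13 (0.98), each over 12 libraries.

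Some members share their position with another gene on GRCm38.p6, and whether reads were counted by strand is not given in the sources used here. Slc3a1 overlaps Prepl, and Slc1a1 overlaps Gm52404 and Gm5822. Slc5a2 overlaps Rusf1, Slc2a2 overlaps 1700112D23Rik, Slc6a19 overlaps Slc6a19os, Slc7a7 overlaps Oxa1l and Slc7a9 overlaps Gm42378. Slc7a8, Slc5a1 and Slc7a13 overlap no other gene there. Reads in the shared parts cannot be assigned to 1 gene with certainty.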

How the data were processed

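Whole-kidney RNA of 12 mice, 3 in each of 4 groups named by the labels, was sequenced, and the authors deposited 1 table of TPM, which sum to 1000000 in each library, for 27179 genes listed by NCBI Gene number. The submitters' processing notes name mm10 and limma without versions, and the aligner, counter and annotation are not given in the sources used here. Columns left out were 0. RefSeq genes of GRCm38.p6 named 25275 of the numbers.

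From the TPM, log2(TPM + 1) was computed for the 14972 genes that reached 1 TPM in 3 or more libraries. A model of the 4 group means over all 12 libraries was fitted in limma 3.58.1 (R 4.3.3), with a mean-variance trend and Benjamini–Hochberg adjustment over all genes tested (threshold 0.05). Fold changes on this scale understate those of low genes. A single member was also compared by the exact two-sided permutation test. Mice are the replicates, so limma p-values set a group difference against the spread between mice. That spread was estimated over all 4 groups with information shared across genes, and in the main fit it includes Y-linked differences. The steps were tested on simulated data.

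Whole reads, recovered from the TPM steps for all 27179 genes and checked on 400 short RNA genes, of which 398 had their annotated length, served for depth and for 1 alternative (limma's voom). TPM are shares of a total, so a few abundant genes can move all others. The members and lists were chosen with earlier results of these data known. All 10 members are named. Of the related genes, those called under cisplatin with the largest fold changes and the partner subunits are named by rule. The 5 called higher in FAN1KO kidneys, and Slc2a5, Slc36a1, Slc2a1, Slc43a2, Slc16a10 and Slc6a13, were named after their values were seen. Some genes of the lists are not reported here. Alternatives are listed in the closing section. Python 3.11.15, numpy 2.4.6, pandas 2.3.3, scipy 1.17.1, numba 0.67.0 and matplotlib 3.10.9 were used.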

Additional observations from a re-analysis of the deposited data

How the results depend on the processing

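The main single-gene results of the text were recomputed under 22 alternatives, which gave 768 values. Of these values, 713 kept their direction and their side of the threshold, 21 came to pass it, 19 no longer passed it and 15 changed sign. The count leaves out other values of the text, such as the Slc1a1 interaction, the treatment intervals in wild-type kidneys and the cell type markers. The alternatives were a pseudocount of 0.1, no filter, only the libraries compared, median-ratio scaling, a total without mitochondrially encoded genes, Y-linked RNA as covariate, no Y-linked libraries, no trend, a replicate block, voom on recovered reads and each of 12 libraries left out. Slc3a1 and Slc1a1 between genotypes under cisplatin, and Slc5a2 between treatments in FAN1KO kidneys, kept their calls under all of them, and none of the values that changed sign had been called.

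The number of members called lower between genotypes under cisplatin was 2 as reported, 3 with only the libraries compared and with median-ratio scaling (Slc7a9 added both times), 3 with the Y-linked covariate (Slc7a13) and 4 without the Y-linked libraries (Slc7a9 and Slc7a13). Between treatments in FAN1KO kidneys it was 2 as reported, 5 with median-ratio scaling (Slc2a2, Slc7a9 and Slc1a1 added), 4 without mitochondrially encoded genes (Slc7a9 and Slc1a1), 5 with the Y-linked covariate (Slc7a9, Slc7a13 and Slc1a1), 3 without the Y-linked libraries and with voom (Slc7a9) and 1 to 3 with 1 library left out, where it was 1 without FAN1KO cisplatin replicate 2. For the interaction it was 0 as reported, 1 with the Y-linked covariate and 1 without the Y-linked libraries.

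Log2 fold changes between genotypes under cisplatin changed sign with median-ratio scaling for Slc7a7 (−0.19) and Slc7a8 (−0.068) and without the Y-linked libraries for Slc7a7 (−0.12). With 1 library left out, Slc2a2 ran from −0.29 to 0.019, Slc7a7 from −0.019 to 0.23, Slc7a8 from −0.12 to 0.50, Slc5a1 from −0.42 to 0.012, Slc5a2 from −0.45 to −0.17, Slc6a19 from −0.82 to −0.26 and Slc7a13 from −3.48 to 0.98. Between treatments in FAN1KO kidneys, Slc5a1 was −0.15 with median-ratio scaling, and with 1 library left out Slc7a7 ran from −0.50 to 0.14, Slc7a8 from −0.84 to 0.061 and Slc7a13 from −2.83 to 1.88. The causes were not tested, apart from the libraries that each alternative leaves out.

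Deviations of same-numbered libraries had a mean correlation of −0.24 under cisplatin and −0.21 under saline between genotypes. Between treatments it was −0.14 in FAN1KO and −0.18 in wild-type kidneys. Single pairs varied widely, from −0.61 to 0.51 between genotypes under saline and from −0.60 to 0.60 between treatments in wild-type kidneys. In every comparison the Y-linked libraries of the groups had different numbers. These correlations therefore cannot show whether replicate numbers paired the mice. With the replicate block the members called lower were 2 between genotypes under cisplatin and 2 between treatments in FAN1KO kidneys, and the block changed no call of a member. Depth limits no member but Slc7a13, whose lowest value rests on 55 reads.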
